A study of Mus musculus with 6 samples.

Results

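The genes described here carry the names of splicing factor and spliceosome genes. They were taken as every gene whose symbol starts with Srsf, Hnrnp, Sf3, Prpf, Snrnp, Snrp, U2af, Rbm, Srrm, Luc7l, Celf, Mbnl, Tra2 or Zrsr and that had an exonic, splice or untranslated region (UTR) annotation in any variant list, with Srsf2 left out. There were 74 such genes of 11429 genes with such an annotation. All 74 were found in RefSeq, 73 of them as coding genes and Hnrnpa1l2-ps as a pseudogene. RefSeq holds 141 coding genes with these prefixes, so that about as many carried no listed site as carried any. The name Rbm stands for RNA-binding motif, and not every gene with it acts in splicing.

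DNA was taken from unsorted bone marrow and from the ear of 3 C57BL/6 mice and enriched for exons with a 50 Mb capture kit, at a mean depth stated as 100 reads. Every mouse carried the P95H change of Srsf2 on 1 allele (P95H/+ in the study's design text) and had been given tamoxifen, and tissue was taken 50 to 60 weeks afterwards, when the mice were moribund. The labels give the same range of weeks as the age of the mice. Animals 54 and 108 were male and animal 136 was female. The sample labels give each of them the R26CreERT2 driver, a Cre recombinase made in most cell types and switched on by tamoxifen, whereas the study's design text gives 1 animal an hScl-CreERT driver with an R26eYFP reporter, which acts in blood-forming cells. The driver was therefore not used. No mouse without the Srsf2 change was included, and DNA gives no expression with which to check the tissues. Each tissue of each animal is a single library, so differences between tissues within an animal have no replicate beyond the 3 animals.

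Pre-mRNA splicing is carried out by the spliceosome, which is built on each intron from small nuclear ribonucleoproteins (snRNPs). SR proteins mostly bind exons and promote their inclusion, and hnRNPs often act against them. The U2 snRNP, with its SF3A and SF3B complexes, recognises the branch site, U2AF and its relatives recognise the end of the intron, and the tri-snRNP brings in the catalytic core. In human myeloid neoplasms, mutations of SRSF2, SF3B1, U2AF1 and ZRSR2 seldom occur together.

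The sequences that best show what was found are an indel in a coding repeat, indels carried by both tissues, a marrow insertion and promoter stretches. The first pair is the repeat of Rbm33 (exon 15 of 19), as the lists give it on the forward strand, with capitals on the 6 bases that the variant allele lacks.
Rbm33 reference allele, chr5:28394186-28394206: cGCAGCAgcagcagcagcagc
Rbm33 variant allele: cgcagcagcagcagc
The same allele results whichever of the repeated units are lost, and the capitals mark the leftmost. The deletion is annotated at the other end of the printed stretch, as p.Gln897_Gln898del in a run of glutamines. It was read in 10 of 30 reads of marrow (33.3%, 95% Clopper-Pearson interval 17.3 to 52.8) and in 9 of 24 reads of ear (37.5%, 18.8 to 59.4) of animal 108. The next 3 alleles are insertions, with the inserted bases in capitals, on the forward strand. The first lies in the 3′ UTR of Snrpf and was in both tissues of animal 54, the second lies in an exon of a non-coding transcript of Snrnp200 and was in both tissues of animal 108, and the third is the insertion that Strelka called in the marrow of animal 136 in Sf3a2.
Snrpf, inserted after chr10:93583372: tATGTCTGCATA
Snrnp200, inserted after chr2:127238326: tCCTTTGAG
Sf3a2, inserted after chr10:80804708: aCTCTTT
The promoter stretches are 30 bases each from RefSeq (GRCm38.p6), on the strand of the named gene, with variant bases in capitals.
Rbm7, chr9:48495346-48495375, minus strand: tcgcgcacggcgggcCtttacgtcgtgacg
Rbm10, chrX:20617268-20617297, plus strand: tgtactgcggagtccTggggggCggggggg
Reference bases of the lists matched RefSeq GRCm38.p6 at 2896 of 2896 single nucleotide sites inside RefSeq promoter windows, so positions are given in that build.

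The lists of all variants held 161 exonic, splice or UTR sites in 62 of the genes, and 12 further genes appeared through somatic calls alone. Animal 54 had 44 sites in its marrow list and 57 in its ear list, animal 108 had 60 and 62, and animal 136 had 14 and 19. These were 0.273% to 0.426% of all such sites in a sample, so the low number in animal 136 went with 5120 and 5252 sites over all genes, against 11147 to 18179 in the other libraries. The median depth at splicing gene sites ran from 14 reads in ear of animal 136 to 39.5 in marrow of animal 108, below the 31 to 71 reads over all genes in the same lists. Depth at positions that were not called is unknown, since the lists hold only called sites. Their stated depth was 11 or more, and fewer reads could remain at a site once those of both alleles were counted. The annotations differed between animals as well. Protein-altering sites, meaning those that SnpEff gives HIGH or MODERATE impact, were most frequent in animal 108, with 24 in its marrow list and 30 in its ear list. Animal 54 had 3 and 2 of them and animal 136 had 2 and 3.

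**Figure D1:**
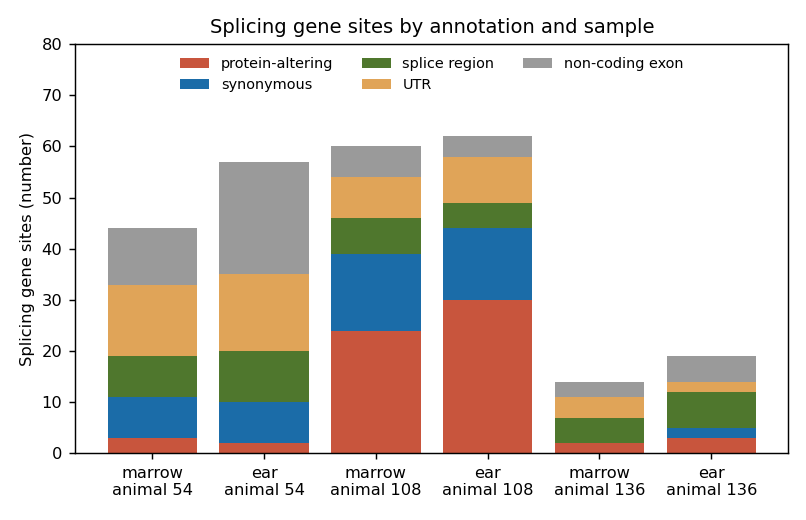
Number of splicing gene sites in each sample (bars, stacked by SnpEff annotation) for marrow and ear of animals 54, 108 and 136. Animal 108 held 24 and 30 protein-altering sites, and no other sample held more than 3.

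Sites called in both tissues of an animal numbered 73, in 22 genes. Of these, 68 were called in both tissues of 1 animal, 5 in both tissues of 2 animals and none in both tissues of all 3. The share in 1 animal was 93.2%, beside 85.4% of the 22352 such sites over all genes. Animal 108 had 47 of them in 11 genes, animal 54 had 27 in 13 genes, and animal 136 had 4 in 3 genes. Their median variant fraction, the reads of the variant allele over all reads, was 43.3% for marrow and 38.9% for ear in animal 54. In animal 108 these medians were 47.2% and 40.8%, and in animal 136 they were 36.2% and 39.9%. Both-tissue sites of all genes had medians of 45.5% to 47.1% for marrow and 45.8% to 46.8% for ear. Paired by site, the median of marrow minus ear was 1.19 percentage points for animal 108, with marrow higher at 25 of 47 sites. For animal 54 it was 1.47 points (16 of 27), and for animal 136 it was -1.83 (1 of 4). The 47 sites included 20 of Rbm44, whose own medians were 52.1% for marrow and 39.3% for ear. None of these splicing gene sites exceeded 90% in either tissue. Over all genes, 1.95% to 8.19% of both-tissue sites did.

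**Figure D2:**
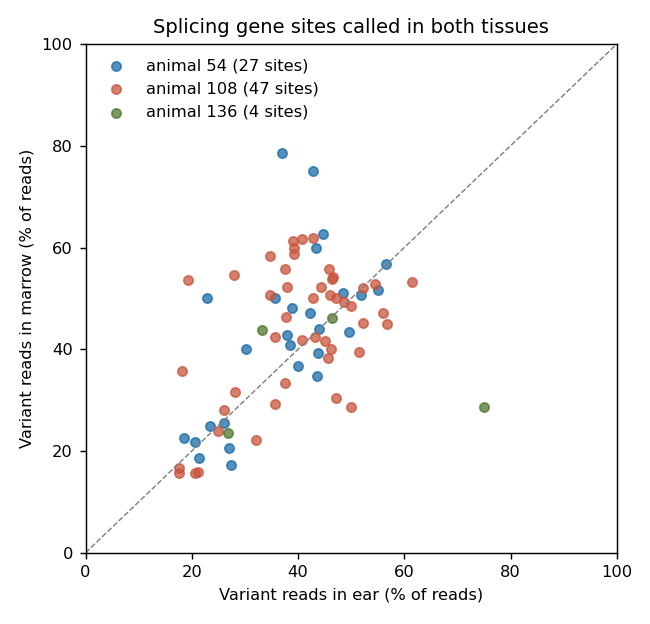
Variant fraction in marrow (y axis, percent of reads) against ear (x axis) for each splicing gene site called in both tissues of an animal, coloured by animal, with the line of equal fractions dashed. The sites form a group around 40 to 60% in both tissues and a smaller group near 15 to 30%, and no site lies above 90%.

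Rbm44, a protein of the bridges between germ cells, held the most sites. All 20 were in both tissues of animal 108 and in no other list, over 13896 bases from 91153115 to 91167011 on chromosome 1 in exons 3, 4, 5, 9, 11 and 13 of 16. They comprised 18 missense and 2 synonymous changes, from p.Arg342Gly to p.Ile900Thr of 1013 residues. In marrow the variant fraction ran from 39.5% to 61.6% with a median of 52.1%, and in ear from 19.2% to 56.8% with a median of 39.3%. Marrow was higher at 15 of the 20 sites, and these runs were not spread evenly along the gene. In exon 3, whose 9 sites lie within 387 bases, the medians were 52.2% in marrow and 37.7% in ear, and in exon 5 they were 56.7% and 33.6%. In exon 9 the order was the other way, 45% in marrow and 52.2% in ear at its 3 sites. Neighbouring sites share reads and are not separate measurements. Codon 566 carried p.Ile566Val and p.Ile566Met, annotated separately at 2 bases of the same codon in 21 of 35 and 20 of 34 marrow reads, and the lists do not say whether the same molecules carry both.

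**Figure D3:**
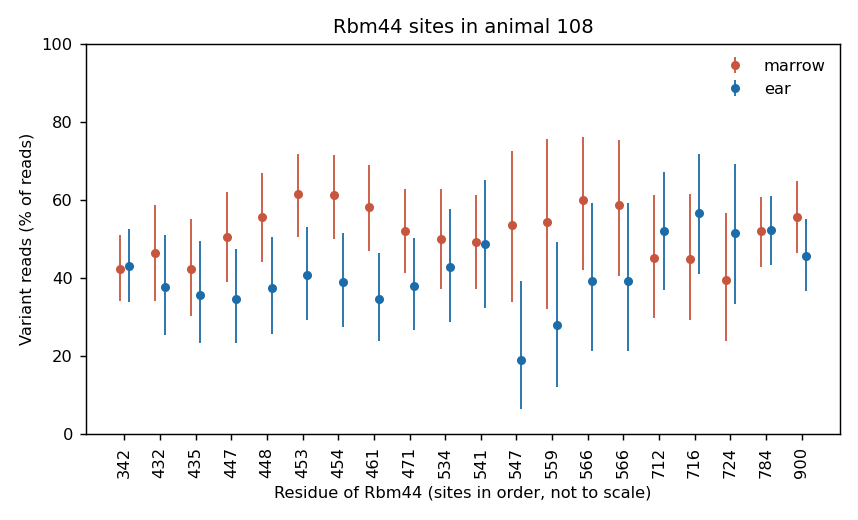
Variant fraction (percent of reads) at the 20 Rbm44 sites of animal 108, in order along the protein, for marrow and ear, with bars giving the 95% Clopper-Pearson interval, which covers counting error only. Marrow lies above ear at residues 432 to 566 and below it at residues 712 to 724, with intervals that mostly overlap.

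The other protein-altering sites carried by both tissues lay in Srrm1, Rbm20 and Rbm33. Srrm1 encodes an SR-related protein that joins splicing factors bound to exons. In animal 54 it had p.Ala881Thr at a marrow fraction of 56.8% (42 of 74 reads, 44.7 to 68.2) and an ear fraction of 56.6% (60 of 106 reads, 46.6 to 66.2), and p.Leu814Pro in 18 of 44 marrow reads (40.9%) and 30 of 78 ear reads (38.5%). Marrow and ear lay within 3 percentage points of each other at both of these sites. Rbm20, the regulator of titin splicing in heart muscle, had p.Gly852Arg in 33 of 62 marrow reads (53.2%) and 27 of 44 ear reads (61.4%) of animal 108. Its second change, p.Thr926Pro, was in 65 of 120 marrow reads (54.2%) and 55 of 118 ear reads (46.6%). Neither site passed the test between tissues given below (exact p = 0.433 and 0.3).

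The glutamine-rich stretch of Rbm33, an RNA-binding protein, gave 9 sites between residues 885 and 897, all in animal 108. Besides the deletion shown above, p.Pro892Gln, p.Pro892Pro and p.Gln894Pro were in both tissues, at 15.6% to 16.7% of marrow reads and 17.6% to 21.1% of ear reads. The remaining 5 were called in ear alone. Among these were p.Gln885_Gln886insHis in 8 of 20 reads (40%) and p.His890Gln in 14 of 36 reads (38.9%). The substitutions at residues 892 and 894 were therefore at lower fractions than the deletion, with overlapping intervals. The deletion is listed at the same position as p.Pro892Gln. All of them lie in or beside the repeat, and how far alignment there sets the calls was not tested.

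Of the 73 sites, 25 (34.2%, 95% Clopper-Pearson interval 23.5 to 46.3) altered a protein, beside 21.6% of both-tissue sites over all genes. Without Rbm44 it was 7 of 53 (13.2%, 5.48 to 25.3), so the share above that of all genes came from Rbm44. Within animals the share was 48.9% in animal 108 (34.1 to 63.9), 7.41% in animal 54 (0.91 to 24.3) and 0 of 4 sites in animal 136 (upper limit 60.2).

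Among the snRNP proteins, both-tissue sites were silent or lay outside coding sequence. Snrnp200, the helicase that unwinds the paired snRNAs of the tri-snRNP, had 6 in animal 108. They included p.Ala123Ala in 76 of 161 marrow and 98 of 175 ear reads (47.2% and 56%), and p.Cys1471Cys in 177 of 350 and 183 of 398 reads (50.6% and 46%). The insertion printed above was in 16 of 33 marrow reads and 17 of 34 ear reads. Both synonymous sites, the deepest in the gene, were close to an equal share of both alleles in either tissue. Beside the insertion, n.236G>C was lower, in 5 of 32 marrow reads and 6 of 34 ear reads (15.6% and 17.6%). Snrnp40, a U5 snRNP protein, had 3 in animal 54, among them the synonymous splice region change p.Leu92Leu in 76 of 150 and 128 of 247 reads (50.7% and 51.8%). Sm proteins, which form the ring around the snRNA, had changes in animal 54. Snrpe carried p.Ser39Ser (51.7% in marrow, 55.1% in ear), and Snrpf carried c.129+4T>A in 68 of 141 and 84 of 216 reads (48.2% and 38.9%) and its inserted 11 bases at 42.9% and 38%. Prpf8, the large protein at the catalytic centre, had p.Thr2231Thr in animal 108 (46 of 120 and 52 of 114 reads).

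The hnRNPs had 16 both-tissue sites in 7 genes, which include the pseudogene Hnrnpa1l2-ps. None of the 16 sites was protein-altering. Hnrnpc, which binds runs of uridine, carried 3 UTR changes in animal 108, at 50% to 53.8% of marrow reads and 44.3% to 47.1% of ear reads. At the 2 in its 3′ UTR the mapping quality was 27 in both tissues. The medians at sites with 35% or more in both tissues were 42 in marrow and 41 in ear. Hnrnpr had p.Thr142Thr in animal 54 (34.8% in marrow, 43.6% in ear). Hnrnpk, which binds runs of cytidine, had 2 changes within 3 bases in a non-coding transcript, n.472A>T in 11 of 14 marrow and 10 of 27 ear reads (78.6% and 37%), and a deletion of a base in 9 of 12 and 12 of 28 reads (75% and 42.9%). That pair had the highest marrow fractions of any splicing gene site called in both tissues, from 12 and 14 reads. The 3 Hnrnpab sites, in its 3′ UTR within 13 bases of each other, were at 18.6% to 22.6% in both tissues of animal 54. No both-tissue site was found in the U1-associated Luc7l or in the 7 Celf and Mbnl regulators, while 22 of all 74 genes had any.

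The fraction at a site went with how many other both-tissue sites lay nearby. The sites were divided after the fractions were seen, so no test applies. In 48 site and animal pairs, both tissues were at or above 35%, and the median number of other both-tissue sites within 500 kb in that animal was 394 (range 1 to 923). In 16 pairs both tissues were under 35%, and that median was 6 (range 0 to 174). The 48 pairs came from 15 genes and the 16 from 9, and sites of a gene share a window, so pairs are not independent. A site was called in 2 or 3 animals in 2 of the 48 pairs and in 7 of the 16, counted once per animal. The 2 were c.650-8C>T of Hnrnpul1 in animals 108 and 136, and the 7 lay in Hnrnpa1l2-ps, Hnrnpl, Rbmx and Hnrnpul1. Examples of the first kind came from the windows of Rbm44 (414 such sites in animal 108, against 4 in each of the others), Hnrnpc (926 in animal 108, 3 in animal 54 and 6 in animal 136), Snrpf (540 in animal 54, 3 and 5 in the others), Hnrnpr (440 in animal 54) and Snrnp200 (179 in animal 108). These 5 windows held many sites in the animal that carried the change and few in the others. The c.650-8C>T site of Hnrnpul1 was an exception, at or above 35% in both tissues of animals 108 and 136 with 7 and 1 other sites nearby. Its mapping qualities in these animals were 36 to 38.

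The sites called in 4 or 5 samples lay in Hnrnpul1, Hnrnpl, Srrm1 and Rbmx. In Hnrnpul1, c.650-5C>T in intron 4 was in 16 of 70 ear reads of animal 54, in 11 of 46 marrow and 5 of 20 ear reads of animal 108, and in 8 of 34 marrow and 7 of 26 ear reads of animal 136. The share was 22.9% to 26.9% in all 5 samples, and the site was absent from the marrow list of animal 54. Its neighbour c.650-8C>T was listed in the same 5 samples, at 40% to 46.4%. In Hnrnpl, synonymous changes in a proline stretch, p.Pro394Pro and p.Pro396Pro, were at 25.8% to 35.7% in 4 samples and 17.2% to 32% in 5 samples. The Rbmx change c.657-4G>T was listed in the males only, in 20 of 97 marrow and 34 of 126 ear reads of animal 54 (20.6% and 27%) and in 36 of 114 marrow and 29 of 103 ear reads of animal 108 (31.6% and 28.2%). Rbmx, also known as hnRNP G, lies on the X chromosome. Mapping qualities at this site were 37 to 39, against a median of 42 in marrow and 41 in ear at sites with 35% or more in both tissues. The part of alignment to similar sequences in these fractions was not tested. Sf3b1, the U2 protein often mutated in human myelodysplasia, had c.1720-7C>T in 7 of 28 marrow and 8 of 34 ear reads of animal 54 (25% and 23.5%) and no protein-altering site in any list.

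**Figure D4:**
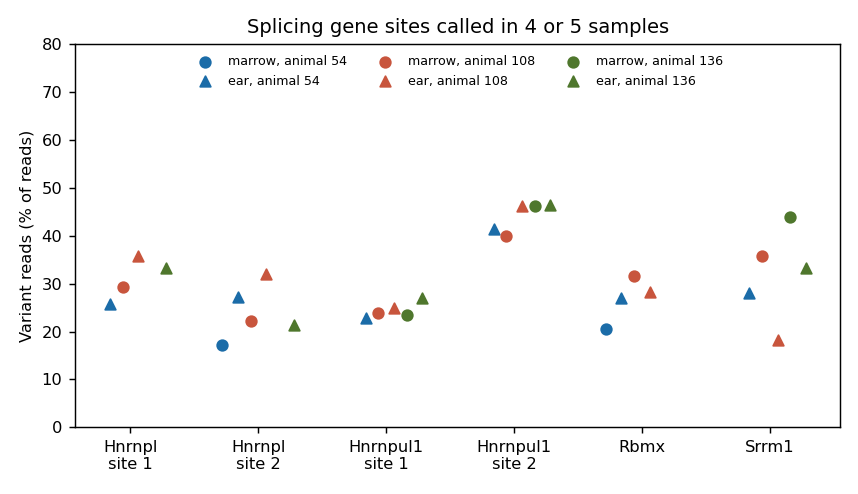
Variant fraction (percent of reads) at each splicing gene site called in 4 or 5 samples, by marrow (circles) and ear (triangles) and coloured by animal. Site 1 of Hnrnpul1 stayed at 22.9 to 26.9% and site 2 at 40 to 46.4%, with no symbol where a sample's list lacks the site.

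Marrow was next compared with ear at each site called in both tissues of an animal with at least 10 reads in each. This asks whether the share of an allele carried by both tissues differed between them. An allele called in a single tissue could not enter the test. None of the splicing gene sites passed. In animal 54, 0 of 27 sites had an adjusted p under 0.05 (two-sided Fisher exact test, Benjamini-Hochberg over all 31881 sites), against 0.0345% of all sites. In animal 108 it was 0 of 47, against 0.0326% of 49031 sites, and in animal 136 it was 0 of 3, against 0.0181% of 11033 sites. A count of 0 is near these background shares. Without adjustment, 3, 6 and 0 splicing gene sites had an exact p under 0.05, 11.1%, 12.8% and 0% of those tested, against 8.4%, 7.43% and 6.23% of all sites. Of the 6 in animal 108, 5 were Rbm44 sites, most of them close together in exon 3. The lowest values in animal 108 were at Rbm44. For p.Thr461Ile, marrow had the variant in 49 of 84 reads (58.3%, 47.1 to 69), and ear had it in 26 of 75 (34.7%, 24 to 46.5) (exact p = 0.00406, adjusted p = 0.345), and p.Ile454Val and p.Ser453Ser beside it had exact adjusted p-values of 0.443 and 0.455. In animal 54 low values were those of n.472A>T of Hnrnpk (exact p = 0.0203, adjusted p = 0.488) and the inserted base of Hnrnpr in 16 of 32 and 8 of 35 reads (exact p = 0.0246, adjusted p = 0.509). In animal 136 the 3 sites tested, 2 in Hnrnpul1 and 1 in Srrm1, had exact p-values of 0.705 or more. At these depths a difference of 23.7 percentage points, that of p.Thr461Ile, did not pass, so smaller ones were not detectable at sites of like depth.

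No splicing gene site was called in all 6 samples, so the test over the 3 animals had 0 of its 4450 sites in these genes, and 0.0225% of the 4450 passed (exact conditional test with animal as block, adjusted p under 0.05). Without animal 54, 3 splicing gene sites could be tested, and none passed (n.2847C>A of Srrm1, exact adjusted p = 0.935, and both Hnrnpul1 sites, exact adjusted p = 1). Without animal 136, p.Pro396Pro of Hnrnpl and c.657-4G>T of Rbmx could be tested, with exact adjusted p-values of 0.978 and 1.

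The Strelka lists hold passed calls of changes in marrow against the ear of the same animal, with a quality score and no read counts. They gave 30 calls in 30 of the genes, 12 in animal 54, 6 in animal 108 and 12 in animal 136. Of these, 16 altered a protein (6, 1 and 9 by animal, with 95% Poisson intervals of 2.2 to 13.1, 0.0253 to 5.57 and 4.12 to 17.1), each in a different gene. The remaining calls were 6 synonymous, 4 in splice regions, 3 in non-coding exons and 1 in a UTR. Counted over RefSeq coding genes, 16 of the 141 genes with these prefixes (11.3%, 6.63 to 17.8) had a protein-altering call, against 10.5% of all 21900 coding genes. The share in splicing genes was thus close to that in all genes.

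Of the SR proteins, Srsf1, the first member of the family to be described, had a premature stop, p.Glu120* of 253 residues (exon 2 of 5, chromosome 11, 88048653), in animal 54 with quality 70, the highest of the 30. Celf2, which regulates alternative exons in muscle, brain and lymphocytes, also had a premature stop in animal 54, p.Gln289* of 526 residues (exon 8 of 14, chromosome 2, 6600043), with quality 65. Celf3 followed with p.Gly76Val and quality 60. These 3 calls of animal 54 were the highest of all 30. None of the 3 was in the marrow list of all variants of that animal, so no read count stands beside them.

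Of the branch site and 3′ splice site genes, 3 had a protein-altering call, all in animal 136. Sf3a3, a subunit of the SF3A complex of the U2 snRNP, had p.Gly276Glu in a splice region with quality 57. Its partner Sf3a2 had the in-frame insertion printed above, p.His451_Pro452insSerPhe, with quality 31. Zrsr2, which recognises the end of minor introns, had p.Leu23Ser of 541 residues with quality 23. Neither Sf3b1 nor any U2af gene had a Strelka call.

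Of the tri-snRNP and related Prpf genes, 4 had a protein-altering call. Prpf8 had p.Pro436Thr in animal 54 (quality 23). Animal 136 had p.His824Tyr of Snrnp200 (quality 22), p.Gly282Ser of Prpf18, a factor of the second catalytic step (quality 19), and p.Val701Phe of the kinase Prpf4b (quality 16). All 4 were below a quality of 30. Among the hnRNPs, Hnrnpd, which binds AU-rich elements of mRNA, had p.Tyr66Cys in animal 54 (quality 28), annotated on a transcript of 97 residues. Hnrnpul2 had p.Thr638Lys in animal 136 (quality 20). Among the Rbm genes, Rbm14 had p.Gly26Val (quality 47) and the nucleolar Rbm28 p.Ser636Pro (quality 39) in animal 136. Rbm7, a part of the complex that feeds nuclear RNA to the exosome, had p.Leu168Phe (quality 44), the sole protein-altering call of animal 108 in these genes, and Rbm27 had p.Gln652Arg in animal 54 (quality 23).

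**Figure D5:**
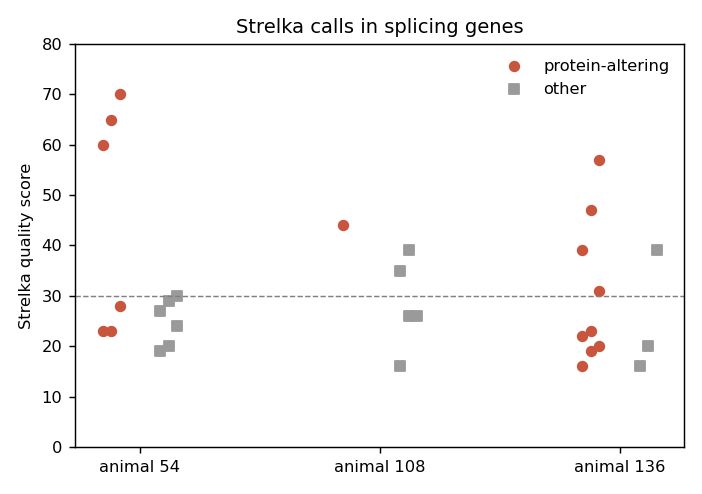
Strelka quality score (y axis) of each of the 30 calls in splicing genes, by animal, with protein-altering calls as circles, all others as squares and a quality of 30 dashed. The 3 highest, at 60, 65 and 70, were in animal 54, and 8 of the 16 protein-altering calls reached 30.

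The qualities of the protein-altering calls ran from 16 to 70 with a median of 29.5. No gene had such a call in 2 animals. None of the 16 was in the list of all variants of the same marrow, and of the other calls 3 were, each synonymous. These were p.Cys195Cys of Mbnl3 in animal 108 (6 of 35 reads) and p.Ala265Ala of Rbm25 (3 of 28 reads) and p.Arg30Arg of Zrsr1 (4 of 13 reads) in animal 54. How often Strelka calls recur between animals, or are in the marrow list, was not counted over all genes. C to A changes made up 12 of the 29 single nucleotide calls (41.4%, 95% Clopper-Pearson interval 23.5 to 61.1), close to the 40.1% over all exonic Strelka calls. Protein-altering calls made up 53.3% of the 30 (34.3 to 71.7), beside 61.5% of the 4379 calls over all genes.

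VarScan2 gave 3 somatic calls in splicing genes, and none altered a protein. Protein-altering VarScan2 somatic calls were found in 0 of the 141 coding genes with these prefixes (upper limit 2.58%), against 0.384% of all coding genes. In the authors' deposited table, n.291C>T in a non-coding transcript of Snrnp40 was in 7 of 13 reads of marrow (53.8%, 25.1 to 80.8) and 3 of 27 reads of ear (11.1%, 2.35 to 29.2) of animal 54, with a somatic p of 0.00648 by the caller's own exact test on reads. In the authors' deposited table, c.-95T>C in the 5′ UTR of Rbms2 was in 5 of 24 marrow reads and 0 of 20 ear reads of animal 108 (caller's exact p = 0.0391), and n.789A>T of Prpf3 was in 8 of 26 and 1 of 18 reads (caller's exact p = 0.0441). The Snrnp40 site lies in a stretch rich in variants in animal 54, with 395 both-tissue sites within 500 kb of the gene. The Prpf3 change was also listed in ear of animal 54 (4 of 22 reads, 18.2%) and in marrow of animal 136 (3 of 15 reads, 20%), so it was not particular to the marrow of animal 108. None of these 3 calls was among the 30 Strelka calls in splicing genes, and the overlap of the callers over all genes was not counted.

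Sites called in 1 sample numbered 84 of the 161, and 61 of these 84 rested on 5 or fewer variant reads. By sample, sites listed in 1 tissue of an animal made up 21.7% to 78.9% of the splicing gene sites, beside 14.6% to 42.3% over all genes in the same libraries. The sole HIGH impact site of the 6 lists of all variants was a lost stop codon in Hnrnph1, in 2 of 15 ear reads of animal 108 (13.3%). Missense changes in 1 tissue at 3 variant reads included p.Arg16His of Srsf9 (3 of 18 reads) and p.Ser2499Phe of Srrm2 (3 of 12 reads) in marrow of animal 136 and p.Phe202Leu of Rbm5 in marrow of animal 54 (3 of 22 reads).

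In the promoter stretches printed above, the Rbm7 variant lies 30 bases before the RefSeq start of the gene and was in 24 of 43 marrow reads (55.8%) and 3 of 12 ear reads (25%) of animal 108, the animal with the 4 synonymous Rbm7 sites. Those sites were at 28.6% to 61.9% in marrow and 42.9% to 54.5% in ear. The Rbm10 stretch, upstream of an X-linked splicing regulator, held variants in all 3 animals. Its T to G change was at 16.7% to 27.3% in 4 samples, from 20 to 30 reads each. Its C to G change was at 31.8% to 61.9% in 5 samples, from 11 to 22 reads each. Both lie beside runs of G, and how far alignment there sets the calls was not tested. The C to G change removes a match to the GC box letters GGGCGG, searched on both strands, of which 2 matches lie in this promoter window and 1 is left with the variant base. These letters occur in 35.7% of 32851 RefSeq promoter windows and in 95 of the 170 windows (55.9%) of genes with these prefixes. A window runs from 250 bases before to 50 bases after a start site, and the match is a description of the letters alone.

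For comparison, 85 further genes of the splicing pathway outside these name prefixes were counted. Both-tissue sites were found in 15 of them and protein-altering both-tissue sites in 6, among them Acin1 and Bcas2. Acin1, a protein of the exon junction complex, had 10 missense sites in both tissues of animal 108, at 39% to 51.1% in marrow and 41% to 61.1% in ear. Protein-altering Strelka calls were found in 11 of the 85 (12.9%), beside the 11.3% of the prefix genes and 10.5% of all coding genes given above. The highest quality among these 11 was 40, for p.Gln81Arg of Xab2 in animal 54.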

How the data were processed

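Exomes of marrow and ear of 3 animals were read from the deposited lists. Per the file headers, variants were called with SAMtools and annotated with SnpEff, and the submitters' processing notes name FastQC, Bowtie2, GRCm38 and mm9. The authors' lists give the read count per allele and strand, VarScan2 lists the read count per allele and a somatic p-value, and Strelka lists a deposited quality score. For the callers' filters, thresholds are not given in the sources here. VarScan2's tumor and normal columns were taken as marrow and ear, and matched the assigned sample more closely at 91.5% to 100% of sites also in that sample's list.

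Sites were joined on position and alleles, after bases shared at the end of both alleles were dropped, and took the annotation of highest impact. Tests were two-sided Fisher exact tests within an animal and an exact conditional test over animals (Python 3.11.15, scipy 1.17.1, numpy 2.4.6), with Benjamini-Hochberg adjustment over all sites and a threshold of 0.05, and were tested on simulated data. Marrow and ear of an animal share its number per the labels, and their deviations from tissue means correlated (r = 0.154, 0.195 and 0.111 over 4450 sites, which are not independent). Intervals reflect counting error alone, because PCR reads lacking molecular identifiers may stem from the same molecule.

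The genes, lists and tests were chosen with earlier results of these data known. Named were all genes with a protein-altering Strelka call, a VarScan2 call or a protein-altering both-tissue site, the 3 lowest p-values per test and the 5 genes with most sites. Any other gene was named after its values were seen, and some results that the rule covers are not reported here.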

Additional observations from a re-analysis of the deposited data

How the results depend on the processing

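No splicing gene site passed the marrow against ear test within an animal when it was rerun with at least 20 reads or with single nucleotide sites only. The other alternatives (core spliceosome prefixes, without each animal, alleles as written) count part of the same adjusted p-values. Their count of 0 was therefore fixed by the main run and adds nothing to it. With no replicate block, the test over animals again called 0 splicing gene sites, and called 8 sites of all genes against 1 with animal as block. The pairing thus changed no splicing gene call, but none of these genes was testable in all 6 samples. Protein-altering Strelka calls fell from 16 to 8 at a quality of at least 30 and to 10 with core prefixes, and ranged from 7 to 15 without an animal. VarScan2 calls fell from 3 to 1 at a somatic p under 0.01, and ranged from 1 to 3 without an animal. Both-tissue sites rose from 73 to 161 when either tissue sufficed and fell to 34 with core prefixes, and ranged from 31 to 72 without an animal. The protein-altering share of 34.2% ranged from 6.45% without animal 108 to 47.9% without animal 54, and was 13.2% without Rbm44, an alternative chosen after seeing the data, as were alleles as written. Apart from calling in either tissue, which lets in more calls, these alternatives use fewer genes, animals or calls by construction. Depth is a limit, since 61 sites in 1 sample rest on 5 or fewer variant reads, and uncalled positions have no depth.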
